A study of Mus musculus with 6 samples.

Results

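The 9 genes described here encode cell adhesion molecules that meet across the synaptic cleft: the neurexin genes *Nrxn2* and *Nrxn3*, the neuroligin genes *Nlgn1*, *Nlgn2* and *Nlgn3*, and the leucine-rich repeat transmembrane genes *Lrrtm1*, *Lrrtm2*, *Lrrtm3* and *Lrrtm4*. They were taken by gene symbol from the RPKM table of each mouse, and are 9 of 21667 named genes there. RNA was sequenced from the somatosensory cortex of 6 adult male mice of a mixed SVeV-129 and C57BL/6J background. The control mice (n = 3) carried floxed *Mef2c* alleles on both chromosomes and no Cre, and the *Mef2c* cKO mice (n = 3) carried the same floxed alleles together with Emx1-Cre. Replicate 1 of each genotype was 14 weeks old, and replicates 2 and 3 were 12 weeks old. In this line Cre is made wherever the native *Emx1* locus is active, that is, in the lineage of cortical and hippocampal excitatory neurons and in part of the glia. Cortical inhibitory neurons, microglia and vessels are outside this lineage, and their RNA is in the tissue too.

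Neurexins are presynaptic receptors with a large extracellular part, and they are spliced into very many forms. Neuroligins and LRRTMs sit in the postsynaptic membrane, bind neurexins, and recruit scaffolds and transmitter receptors. *Nlgn1* protein is found mainly at excitatory synapses, *Nlgn2* protein at inhibitory synapses, and *Nlgn3* protein at both, while the LRRTMs are organizers of excitatory synapses. Some secreted proteins, such as cerebellins, C1q-like proteins and neurexophilins, bind neurexins too, so several ligands share one receptor family.

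Of the 9 genes, *Nrxn3*, *Nlgn1* and *Lrrtm4* fell in *Mef2c* cKO cortex and no gene was called higher. *Lrrtm4* fell by 51.7%, *Nlgn1* fell by 40.5% and *Nrxn3* fell by 30.5%. The other 6 genes did not pass the test, with estimates between 15.2% lower (*Lrrtm3*) and 18.4% higher (*Lrrtm2*). The genotypes did not overlap in the 3 genes called, nor in *Nrxn2*, *Nlgn3* and *Lrrtm3*, and the same held for 33.8% of all genes tested. A gene was called when its adjusted p was under 0.05 (limma with a variance trend, Benjamini-Hochberg adjustment over 14577 genes) and its absolute log2 fold change was above 0.3. Across all genes tested 13.7% were called, 7.77% lower and 5.89% higher in *Mef2c* cKO, against 3 of 9 members lower and 0 higher. The median log2 fold change was -0.17 over the members and 0.01 over all genes tested. The members were chosen with earlier results of these data known, so these comparisons are a description and no test of enrichment.

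Values are given as CPM, a gene's reads per 1000000 reads of its library, after whole read counts had been recovered from the deposited RPKM values. The libraries held 19326365 to 54128334 reads, and the members' counts ran from 645 to 28517 per library, so that counting error alone was 0.592% to 3.94% of a value. The deposited RPKM could not be compared between mice, because each table had divided a gene's reads by a different length. *Nlgn3* stood at an RPKM of 173 in control 3 and 4.41 in control 2, for example, although its CPM in these mice was 116 and 112. With the deposited RPKM as they stand, 0 of the 7 members tested passed, and 14 of 7974 genes passed (0.176%).

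The reads of *Mef2c* itself did not check the deletion. They were higher in the libraries labelled *Mef2c* cKO, at 1231, 1276 and 1468 CPM against 800.3, 772 and 800.2 CPM in controls (log2 fold change 0.74, adjusted p = 1.78e-04), and a gene-level count sums the exons outside the deleted part. *Emx1*, the gene that carries Cre and is named here after its values were seen, was at 5.71, 4.97 and 5.10 CPM in the *Mef2c* cKO libraries and at 16.5, 20.3 and 18.8 CPM in controls.

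Promoter windows of the 3 genes that fell are shown with 1 of *Nlgn2*, a neuroligin gene that did not pass, since a transcription factor was deleted. Each line gives the 250 bases before 1 annotated RefSeq start, 5′ to 3′ along the gene, taken from RefSeq windows of GRCm38.p6 and placed on mm9 by an exact match found once on its chromosome. Capitals mark 3 short promoter sequences on either strand, the TATA box as TATAAA, then the CAAT box as CCAAT, then the GC box as GGGCGG. The windows are chr6:79968621-79968870 (plus strand) for *Lrrtm4*, chr3:26052909-26053158 (minus strand) for *Nlgn1*, chr12:91050673-91050922 (plus strand) for *Nrxn3* and chr11:69651287-69651536 (minus strand) for *Nlgn2*.
Lrrtm4: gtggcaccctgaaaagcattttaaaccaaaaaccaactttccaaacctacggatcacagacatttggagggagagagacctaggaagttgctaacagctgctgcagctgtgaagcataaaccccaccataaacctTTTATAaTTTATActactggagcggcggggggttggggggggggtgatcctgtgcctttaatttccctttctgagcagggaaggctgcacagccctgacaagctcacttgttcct
Nlgn1: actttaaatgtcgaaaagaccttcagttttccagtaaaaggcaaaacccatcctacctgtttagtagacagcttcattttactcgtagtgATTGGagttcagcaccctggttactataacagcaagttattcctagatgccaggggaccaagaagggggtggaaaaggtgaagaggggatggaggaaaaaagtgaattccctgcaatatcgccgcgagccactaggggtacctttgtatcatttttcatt
Nrxn3: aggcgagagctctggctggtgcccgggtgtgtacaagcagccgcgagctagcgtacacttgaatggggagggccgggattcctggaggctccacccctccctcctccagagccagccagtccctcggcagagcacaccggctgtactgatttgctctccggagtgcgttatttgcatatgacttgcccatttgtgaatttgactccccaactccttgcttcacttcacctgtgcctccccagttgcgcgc
Nlgn2: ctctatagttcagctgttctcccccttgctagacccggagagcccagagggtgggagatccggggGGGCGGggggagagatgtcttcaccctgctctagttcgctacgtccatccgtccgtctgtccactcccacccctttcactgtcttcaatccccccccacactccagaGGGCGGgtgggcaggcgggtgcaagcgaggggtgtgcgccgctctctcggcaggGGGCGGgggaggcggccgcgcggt

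The MEF2 consensus was absent from these 4 windows on both strands, and from all 10 windows that RefSeq gave for 6 of the 9 members, while 2.92% of 32851 windows of the same length held it. The *Lrrtm4* window held TATAAA at 2 neighbouring places on the minus strand, a sequence found in 12.4% of all windows. *Nlgn1* held 1 CCAAT on the minus strand, which 33.8% of windows held, and *Nlgn2* held GGGCGG at 3 places, which 32.7% of windows held. None of the 3 sequences was in the *Nrxn3* window. GC content was 67.6% in *Nlgn2*, 60% in *Nrxn3*, 49.2% in *Lrrtm4* and 43.6% in *Nlgn1*, against a median of 52.4% over all windows. For *Nlgn1* the start shown lay 20252 bases from the nearest start of a coding transcript in the GENCODE annotation of mm9, so this window rests on RefSeq alone. The *Nrxn3* window is 1 of 3 that RefSeq gave for this gene and lies downstream of the other 2, inside the gene. It was taken because 3 coding transcripts of that annotation start within 50 bases of its start site, against 1 at each of the others. A gene-level count does not tell from which start the reads of *Nrxn3* came. The *Nlgn1* and *Lrrtm4* windows are each 1 of 2. These letters describe the windows and say nothing of factor binding, which was not measured.

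**Figure D1:**
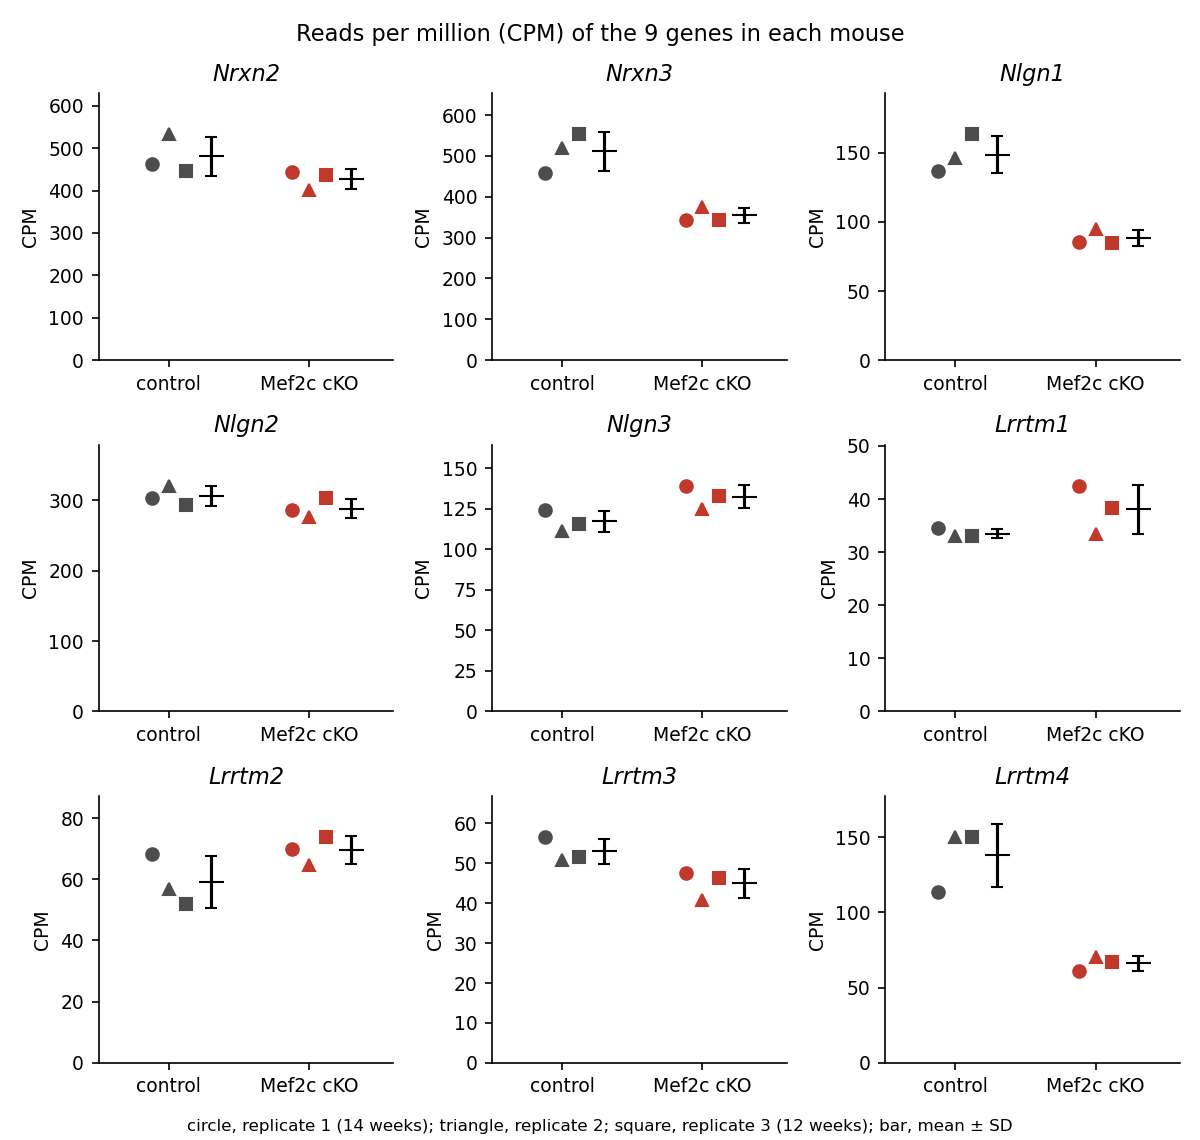
CPM (linear axes from 0) of each of the 9 genes in 3 control mice (grey) and 3 *Mef2c* cKO mice (red), with the mean ± SD of each genotype beside the points. In *Nrxn3*, *Nlgn1* and *Lrrtm4* the genotypes were far apart, with the highest *Mef2c* cKO mouse below the lowest control mouse.

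The neurexins, the presynaptic receptors, were the members with the most reads. *Nrxn3* (chr12:89961320-91573375 in mm9, plus strand) spans 1612056 bases. It was at 459, 520.3 and 553 CPM in controls 1, 2 and 3 and at 344.0, 375 and 343.7 CPM in *Mef2c* cKO 1, 2 and 3. All *Mef2c* cKO values lay below all control values, and the controls spread more than the *Mef2c* cKO mice did, with an SD of 47.8 against 18.0 CPM. The log2 fold change was -0.53 ± 0.077 (SE, 95% interval -0.70 to -0.35, adjusted p = 0.00147, limma). *Nrxn2* (chr19:6418731-6544169, plus strand) was at 462, 533 and 447 CPM in controls and 443, 401 and 438 CPM in *Mef2c* cKO mice. These ranges did not overlap, but only 0.013 on the log2 scale lay between them, and control 2 stood above the rest. Its log2 fold change of -0.17 ± 0.077 (95% interval -0.34 to 0.01, adjusted p = 0.193, limma) did not pass. Of the exon bases of *Nrxn2*, 1005 of 13816 lie over exons of genes on the other strand. The paper states a directional library preparation, but the strand setting of the counting was not given in the sources used here.

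Of the neuroligins, postsynaptic ligands of neurexins, *Nlgn1* fell, and *Nlgn2* and *Nlgn3* did not pass. *Nlgn1* (chr3:25330733-26032656, minus strand) was at 137, 146 and 164 CPM in controls and at 85.5, 94.8 and 84.7 CPM in *Mef2c* cKO mice. The gap between the genotypes, 0.53 on the log2 scale, was wider than the spread within either. *Nlgn1* had a log2 fold change of -0.75 ± 0.078 (95% interval -0.93 to -0.57, adjusted p = 2.11e-04, limma), which put it at place 520 of all genes tested, counted from the deepest fall. *Nlgn2* (chr11:69636624-69651286, minus strand), the neuroligin of inhibitory synapses, had 303, 321 and 293 CPM in controls and 285, 276 and 302 CPM in *Mef2c* cKO mice. The genotypes overlapped, and the 95% interval of its log2 fold change (-0.22 to 0.05, estimate -0.09 ± 0.060, adjusted p = 0.395, limma) leaves out a fall as deep as that of *Nlgn1*. *Nlgn3* (chrX:98491178-98521302, plus strand) was at 125, 112 and 116 CPM in controls and 139, 125 and 133 CPM in *Mef2c* cKO mice. The genotypes did not overlap, but control 1 and *Mef2c* cKO 2 nearly touched, at 124.6 and 125.1 CPM. Its log2 fold change of 0.17 ± 0.065 (95% interval 0.03 to 0.32, adjusted p = 0.109, limma) did not pass. *Nlgn3* shares 749 of its 11008 exon bases with *Med12* on the same strand, where reads cannot be given to 1 gene.

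Among the LRRTMs, *Lrrtm4* fell the most of all 9 members. *Lrrtm4* (chr6:79968871-80760137, plus strand) encodes a postsynaptic receptor that also binds heparan sulfate proteoglycans. It was at 114, 150.2 and 149.97 CPM in controls and at 60.8, 70.4 and 67.1 CPM in *Mef2c* cKO mice. Control 1 was lower than the other controls, and still far above the highest *Mef2c* cKO mouse. The log2 fold change was -1.05 ± 0.11 (95% interval -1.30 to -0.80, adjusted p = 2.11e-04, limma), or 0.483 of the control level, and it took place 292 of all genes tested, counted from the deepest fall. Of its exon bases, 1543 of 6147 lie over exons of *Gm4409* on the other strand, a noncoding gene.

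*Lrrtm3* (chr10:63391220-63553025, minus strand) was at 56.6, 50.7 and 51.7 CPM in controls and 47.6, 40.9 and 46.4 CPM in *Mef2c* cKO mice. The genotypes did not overlap, but the log2 fold change of -0.24 ± 0.078 (95% interval -0.42 to -0.06, adjusted p = 0.073, limma) did not pass. *Lrrtm1* (chr6:77192683-77207785, plus strand) was at 34.5, 33.02 and 33.02 CPM in controls and 42.5, 33.4 and 38.2 CPM in *Mef2c* cKO mice. Its controls were close together, with a coefficient of variation of 2.53%, while *Mef2c* cKO 1 and 2 differed by more than the genotypes did. The log2 fold change was 0.18 ± 0.091 (95% interval -0.03 to 0.38, adjusted p = 0.243, limma). *Lrrtm2* (chr18:35368665-35374678, minus strand) was at 68.4, 56.7 and 51.8 CPM in controls and 69.8, 64.7 and 73.8 CPM in *Mef2c* cKO mice. Control 1, the older control, lay inside the *Mef2c* cKO range. With all mice the log2 fold change of *Lrrtm2* was 0.24 ± 0.10 (95% interval 0.02 to 0.47, adjusted p = 0.149, limma), and without control 1 it was 0.36 (adjusted p = 0.0258). In the 12-week-old mice of both genotypes alone it was 0.35 (adjusted p = 0.0622).

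**Figure D2:**
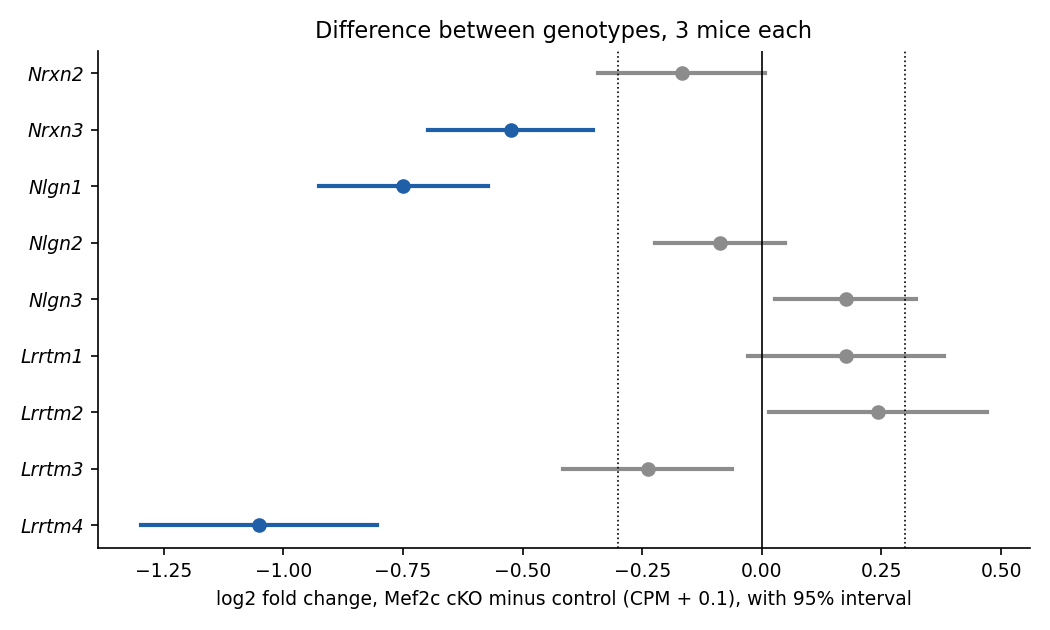
Log2 fold change of CPM + 0.1 (*Mef2c* cKO minus control, 3 mice each) for each gene, with its 95% interval from limma; blue marks the genes called, grey the others, and dotted lines the size cut-off of 0.3 on either side. The intervals of *Nrxn3*, *Nlgn1* and *Lrrtm4* lie wholly below -0.3, the others reach inside the cut-offs.

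Counted by overlap alone, 6 of the 9 members had genotypes that did not overlap, 5 lower and 1 higher in *Mef2c* cKO. Over all genes tested this held for 33.8%, with 17.5% lower and 16.3% higher. This too is a description, since the members were chosen with earlier results known.

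To compare members with each other, CPM was divided by the length of all exons of a gene in the GENCODE annotation of mm9, in kilobases (kb). In controls *Nlgn2* was the highest at 52.8 ± 2.4 CPM per kb (SD, n = 3), followed by *Nrxn3* (40.5 ± 3.8), *Nrxn2* (34.8 ± 3.3) and *Nlgn1* (34.1 ± 3.1). *Lrrtm4* came next at 22.4 ± 3.4 CPM per kb, and *Lrrtm3*, *Lrrtm1*, *Nlgn3* and *Lrrtm2* lay between 12.5 and 10.4 CPM per kb. The ranges of *Nrxn3* and *Nrxn2*, of *Nrxn2* and *Nlgn1*, of *Lrrtm1* and *Nlgn3*, and of *Nlgn3* and *Lrrtm2* overlapped in controls, and the other neighbours in this order did not. In *Mef2c* cKO mice *Nlgn2* was again the highest at 49.7 ± 2.3 CPM per kb, above *Nrxn2* (30.9 ± 1.7), *Nrxn3* (28.1 ± 1.4) and *Nlgn1* (20.3 ± 1.3). *Lrrtm4*, the highest LRRTM in controls, stood at 10.8 ± 0.79 CPM per kb in *Mef2c* cKO mice, inside the range of the other LRRTMs, which were at 10.6 (*Lrrtm3*), 12.3 (*Lrrtm2*) and 12.5 (*Lrrtm1*). From *Lrrtm1* downwards all neighbours in the *Mef2c* cKO order overlapped, as did *Nrxn2* and *Nrxn3*. The order depends on the length used. With the longest coding transcript of each gene in place of all exons, *Nrxn2* was the highest in both genotypes (72.1 CPM per kb in controls, 64.1 in *Mef2c* cKO), and *Lrrtm4* remained the highest LRRTM in controls at 31.1 CPM per kb. Reads were counted on the UCSC annotation, and both lengths of *Nlgn1* in GENCODE are 4359 bases. A RefSeq start of *Nlgn1* lies 20252 bases outside its GENCODE coding starts, so its level per kb and its share of the neuroligins may be too high.

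Shares within the neuroligins and within the LRRTMs are given as a description, with no test. *Nlgn1* made up 33.0%, 33.8% and 38.03% of the summed neuroligin CPM per kb in controls 1, 2 and 3, and 24.0%, 26.9% and 23.2% in *Mef2c* cKO mice. *Nlgn2* made up 54.1 ± 2.5% in controls and 60.6 ± 1.7% in *Mef2c* cKO mice (SD, n = 3), and *Nlgn3* 10.9 ± 0.87% and 14.7 ± 0.76%. *Lrrtm4* made up 33.5%, 42.7% and 43.1% of the summed LRRTM CPM per kb in controls, and 20.9%, 26.3% and 22.99% in *Mef2c* cKO mice. In controls it held the largest share of the family in every mouse. In *Mef2c* cKO 1, 2 and 3 *Lrrtm1* held 29.6%, 25.3% and 26.6%, and *Lrrtm2* held 26.0%, 26.3% and 27.5%, so that the largest share was that of *Lrrtm1* in *Mef2c* cKO 1, of *Lrrtm4* in *Mef2c* cKO 2 and of *Lrrtm2* in *Mef2c* cKO 3. The share of *Lrrtm3* overlapped between genotypes (20.8% to 24.1% in controls, 22.1% to 23.6% in *Mef2c* cKO mice). Shares within a family sum to a fixed whole, so a lower share of 1 gene raises those of the others. The summed CPM per kb was 97.6 ± 2.2 in controls and 82.0 ± 1.6 in *Mef2c* cKO mice for the neuroligins, and 56.4 ± 1.0 and 46.1 ± 2.3 for the LRRTMs.

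**Figure D3:**
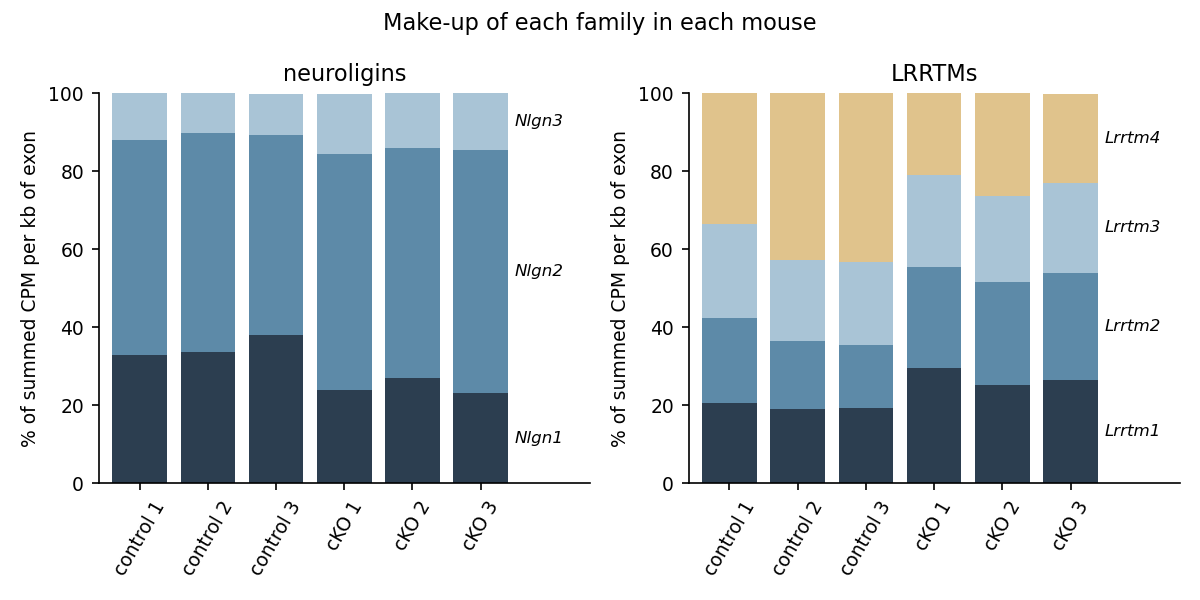
Share of each gene (percent of the summed CPM per kb of exon, stacked from 0) among the neuroligins and among the LRRTMs, 1 bar per mouse. The share of *Nlgn1* is 33.0% to 38.03% in controls and 23.2% to 26.9% in *Mef2c* cKO mice, and that of *Lrrtm4* 33.5% to 43.1% and 20.9% to 26.3%.

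Ratios of 2 genes within a mouse do not depend on the library total. The question was whether members of a family shifted against each other, and 6 pairs were compared with two-sided exact permutation tests of 3 against 3 mice, in which p cannot go below 0.1. The log2 ratio of *Nlgn1* to *Nlgn2* was -1.15, -1.13 and -0.84 in controls and -1.74, -1.54 and -1.83 in *Mef2c* cKO mice, a difference of -0.66. *Nlgn1* to *Nlgn3* was 0.13, 0.39 and 0.50 in controls and -0.70, -0.40 and -0.65 in *Mef2c* cKO mice. The difference was -0.92. The sign of this ratio compares reads and not levels per length, since per kb of exon *Nlgn1* stayed above *Nlgn3* in every *Mef2c* cKO mouse (19.6, 21.8 and 19.4 against 12.7, 11.4 and 12.1 CPM per kb). *Nlgn2* to *Nlgn3* differed by -0.26 (1.38 ± 0.13 in controls and 1.12 ± 0.08 in *Mef2c* cKO mice, SD, n = 3). *Nrxn3* to *Nrxn2* was -0.01, -0.04 and 0.31 in controls and -0.36, -0.10 and -0.35 in *Mef2c* cKO mice, a difference of -0.36. *Lrrtm3* to *Lrrtm4* was -1.01, -1.56 and -1.54 in controls and -0.35, -0.78 and -0.53 in *Mef2c* cKO mice, a difference of 0.81. Each of these 5 ratios had no overlap between genotypes. This gives the smallest exact permutation p of 0.1 (0.12 adjusted over the 6 pairs), so none can pass 0.05 in this design. All of them but *Nlgn2* to *Nlgn3* hold a gene called above, and so restate its fall from the same reads. How often other pairs of genes separate the genotypes was not counted. *Lrrtm1* to *Lrrtm2* overlapped, with a difference of -0.07 (exact permutation p = 0.7, adjusted 0.7).

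**Figure D4:**
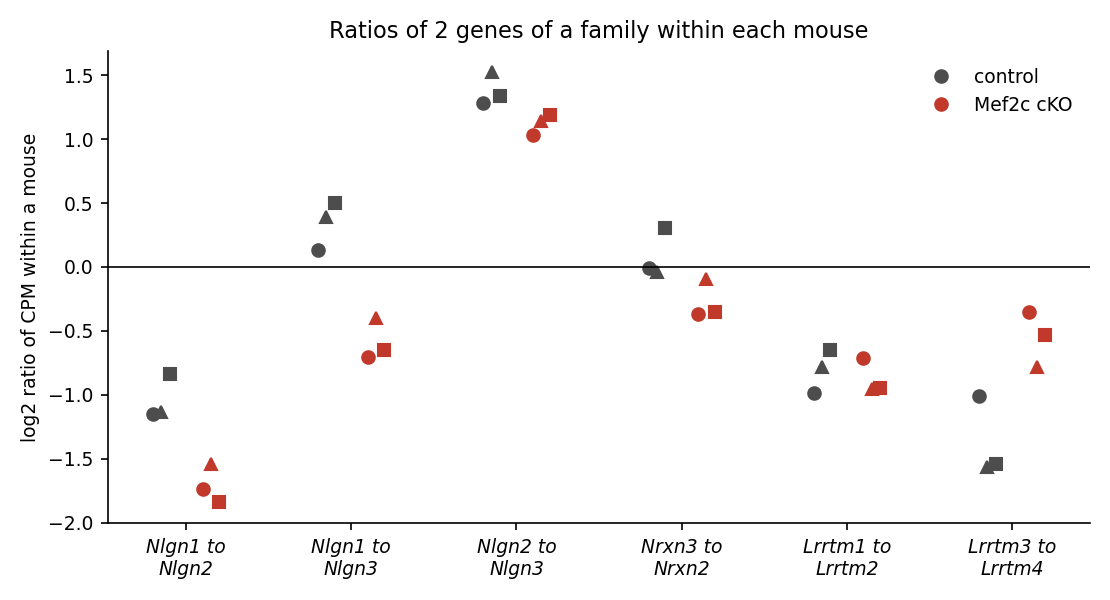
Log2 ratio of the CPM of 2 genes within each mouse (grey, control; red, *Mef2c* cKO; circle, triangle and square are replicates 1, 2 and 3) for 6 pairs of genes. Every pair but *Lrrtm1* to *Lrrtm2* separates the genotypes, and *Nlgn1* to *Nlgn3* is above 0 in all controls and below 0 in all *Mef2c* cKO mice, in CPM that are not divided by gene length.

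In bulk tissue, fewer cells of a type and less RNA per cell cannot be told apart. No marker gene on the lists used was at 0 in all libraries, and neuronal markers were abundant, with a summed level of 7061 to 7970 CPM in controls and 8515 to 9044 CPM in *Mef2c* cKO mice. Of 6 neuronal markers 1 passed and was higher. Of 6 excitatory neuron markers 3 passed, all higher, but their summed level overlapped (5613 to 6699 CPM in controls, 5786 to 6861 CPM in *Mef2c* cKO mice). Of 6 interneuron markers 1 passed lower and 1 higher, and their summed level overlapped (685 to 788 against 726 to 777 CPM). Astrocyte markers summed to 3984 to 4259 CPM in controls and 3502 to 3773 CPM in *Mef2c* cKO mice, where 1 of 6 passed lower and 2 higher. Oligodendrocyte markers summed to 3105 to 5132 and 5043 to 6470 CPM, with 1 of 6 passing, higher in *Mef2c* cKO. Of 3 precursor markers 1 passed, higher, and none of 6 microglial, 5 endothelial and 3 striatal markers passed. The striatal markers differed between mice of 1 genotype, with a summed level of 57.4 to 81.5 CPM in controls and 36.9 to 111 CPM in *Mef2c* cKO mice, and *Mef2c* cKO 2 was the lowest of its genotype in each of them (*Adora2a* 1.35 CPM against 20.3 and 14.1 CPM in *Mef2c* cKO 1 and 3). Of 3 thalamic markers 1 passed higher and 1 lower, with a summed level of 69.4 to 115 CPM in controls and 48.2 to 56.1 CPM in *Mef2c* cKO mice. This lower sum came from *Rora* (mean 71.7 CPM in controls and 31.6 CPM in *Mef2c* cKO mice). *Tcf7l2* (6.79 and 8.34 CPM) and *Prkcd* (8.83 and 13.1 CPM) had higher means in *Mef2c* cKO mice. Without *Mef2c* cKO 2 the log2 fold changes of *Nrxn3* (-0.57), *Nlgn1* (-0.80) and *Lrrtm4* (-1.10) still passed. This does not balance the striatal markers, since *Mef2c* cKO 1 and 3 lay above all controls in each of them. *Adora2a*, for example, was at 7.47, 9.56 and 5.14 CPM in controls. The part of these differences in the fall of *Nrxn3*, *Nlgn1* and *Lrrtm4* was not tested.

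The extracellular partners of neurexins changed in both directions. Of 16 genes on this list, all tested, 4 were higher and 3 lower in *Mef2c* cKO, with a median log2 fold change of -0.05. *Cbln1*, a cerebellin that bridges neurexins to delta glutamate receptors, was at 9.85, 10.9 and 9.37 CPM in controls and 34.6, 27.8 and 32.2 CPM in *Mef2c* cKO mice. It rose by 1.64 ± 0.10 on the log2 scale (adjusted p = 1.27e-05, limma). *Cbln2* was at 49.0, 38.5 and 41.4 CPM in controls and 103, 115 and 113 CPM in *Mef2c* cKO mice (log2 fold change 1.36 ± 0.092, adjusted p = 1.72e-05). *Cbln4*, of the same family, went the other way. It was at 19.3, 19.8 and 10.6 CPM in controls and 4.15, 2.69 and 4.01 CPM in *Mef2c* cKO mice (log2 fold change -2.13 ± 0.25, adjusted p = 4.39e-04), with control 3 well under the other controls. *C1ql2*, a secreted C1q-like protein, was at 3.59, 2.61 and 2.89 CPM in controls and 0.855, 0.983 and 1.48 CPM in *Mef2c* cKO mice (log2 fold change -1.40 ± 0.22, adjusted p = 0.00249). The 3 other genes called on this list are named after their values were seen. The neurexophilin genes *Nxph3* (0.67 ± 0.10) and *Nxph4* (1.24 ± 0.21) rose and *Car10* (-1.004 ± 0.085), whose product binds neurexins, fell on the log2 scale. *Nxph4* did not pass in the 12-week-old mice alone (adjusted p = 0.0515).

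Inside the cell, 1 of 7 neurexin partners was called. *Apba1*, which encodes the adaptor Mint1, went from 224 ± 7.3 to 315 ± 17 CPM (SD, n = 3; log2 fold change 0.49 ± 0.059, adjusted p = 4.96e-04, limma). The median over this list was -0.08. Of 8 neuroligin partners, which include the scaffolds of excitatory and inhibitory synapses, 1 was called. *Mdga1*, whose product binds neuroligins and blocks their contact with neurexins, was at 10.7, 13.2 and 10.3 CPM in controls and 88.7, 71.3 and 71.2 CPM in *Mef2c* cKO mice. This was 6.72 times the control level (log2 fold change 2.75 ± 0.12, adjusted p = 2.1e-06, limma), with no overlap between genotypes. The median over the neuroligin partners was 0.01.

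Heparan sulfate proteoglycans and the receptor phosphatase gene *Ptprs* make up the list of partners of LRRTMs. Of 9 genes 2 were higher and 1 lower, with a median of -0.11. The glypican gene *Gpc4*, whose product is a known ligand of LRRTM4, was at 8.06, 9.98 and 7.78 CPM in controls and 33.0, 32.2 and 38.7 CPM in *Mef2c* cKO mice (log2 fold change 2.0005 ± 0.12, adjusted p = 8.21e-06, limma). *Gpc4* was thus 4.0 times the control level where *Lrrtm4* was at 0.483 of it. *Gpc1* rose by 0.52 ± 0.074 on the log2 scale (adjusted p = 0.00119). *Gpc6* had a log2 fold change of -0.37 ± 0.10 (adjusted p = 0.0429), and this call was lost without control 1 (0.0671), control 2 (0.0573), control 3 (0.135), *Mef2c* cKO 2 (0.127) or *Mef2c* cKO 3 (0.119, all adjusted p). It was lost as well with no filter on low values (adjusted p = 0.0529), without the variance trend (0.093), with an age term (0.0629) and with the replicate number as a block (0.0763).

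Of the 3 splicing regulators of neurexins *Khdrbs2* was called, which encodes the RNA-binding protein SLM1. It went from 34.2 ± 5.3 to 51.4 ± 9.7 CPM (log2 fold change 0.58 ± 0.14, adjusted p = 0.0232, limma), and the call was lost without control 1 (adjusted p = 0.0759), control 2 (0.0627) or *Mef2c* cKO 2 (0.0566), in the 12-week-old mice alone (0.0757) and without the variance trend (0.0691). None of the 3 sheddases was called. *Adam10*, a protease that cleaves several synaptic adhesion proteins, was at 96.1 ± 3.9 CPM in controls and 109.8 ± 6.5 CPM in *Mef2c* cKO mice (adjusted p = 0.0752). Over all partner lists, the 3 alpha-catenin genes below included (1 called), 14 of 49 genes passed, against 13.7% of all genes tested. These lists were drawn up with results of these data known.

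**Figure D5:**
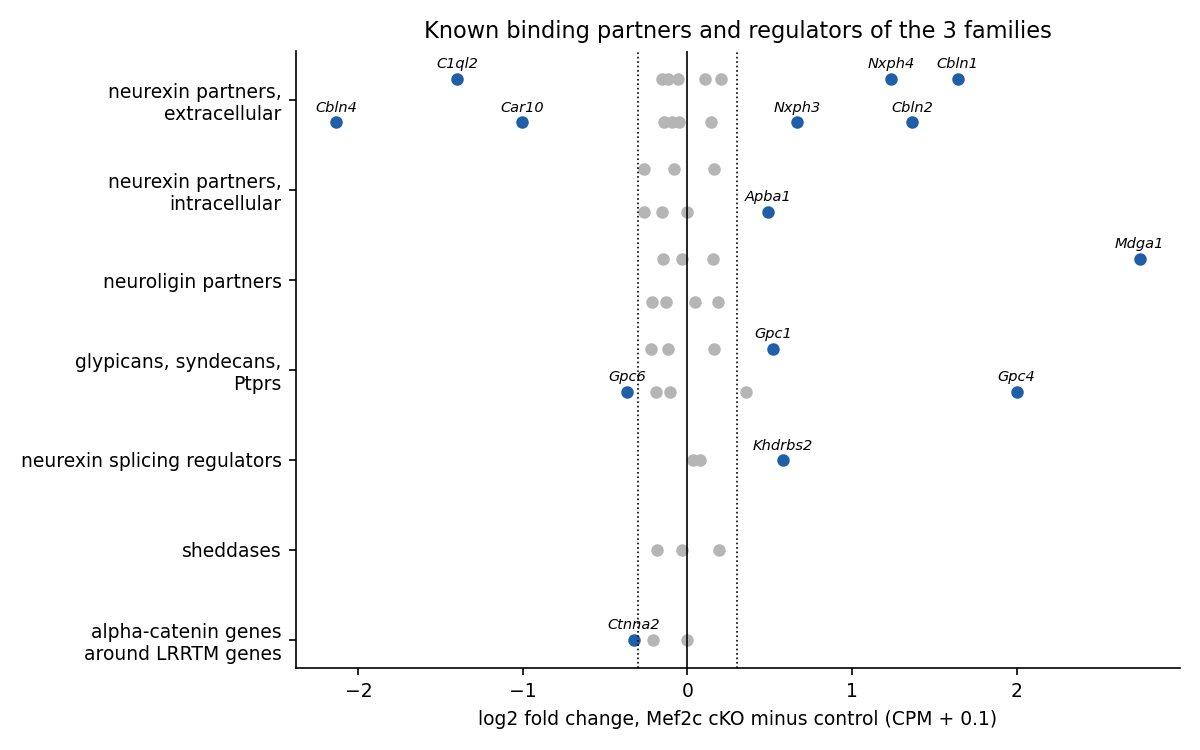
Log2 fold change (*Mef2c* cKO minus control, CPM + 0.1) of each of the 49 genes on the partner lists, alpha-catenin genes included, 1 row per list. Blue with a name marks the genes called, grey the others, and dotted lines the cut-off of 0.3. *Mdga1* and *Gpc4* lie farthest to the right at 2.75 and 2.0005, and *Cbln4* farthest to the left at -2.13.

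*Lrrtm1*, *Lrrtm2* and *Lrrtm3* each lie inside an alpha-catenin gene on the opposite strand, and share 0 exon bases with it. *Ctnna2* (chr6:76831631-77929693, minus strand), which holds *Lrrtm1*, went from 189 ± 18 to 151 ± 6.6 CPM (log2 fold change -0.33 ± 0.075, adjusted p = 0.017, limma), while *Lrrtm1* inside it had an estimate of 0.18. The call on *Ctnna2* was lost without control 2 (adjusted p = 0.0579), control 3 (0.0531), *Mef2c* cKO 1 (0.0565) or *Mef2c* cKO 3 (0.0516), and without the variance trend (0.0594). *Ctnna1*, which holds *Lrrtm2*, was at 71.01 ± 2.7 and 71.04 ± 4.2 CPM, and *Ctnna3*, which holds *Lrrtm3*, at 12.6 ± 2.7 and 10.8 ± 1.1 CPM (adjusted p = 0.998 and 0.419). *Lrrtm4*, the LRRTM gene that was called, lies in none of them.

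The genes whose log2 CPM followed a member most closely over the 6 mice are given as a description, since with 14577 genes and 6 mice high correlations arise easily, and the mice share their genotypes. For *Nlgn1* they were *Pitrm1* (Pearson's r = 0.9987) and *Myo19* (0.9983), for *Lrrtm4* *Ago4* (0.9985) and *Fam163a* (0.9973), and for *Nrxn3* *Osbpl10* (0.9994) and *Ehbp1* (0.998). For the other 6 members the closest genes had r between 0.9832 and 0.9966.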

How the data were processed

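PolyA RNA of frozen somatosensory cortex was sequenced in directional libraries from 3 control and 3 *Mef2c* cKO mice. The authors aligned reads to mm9 with TopHat and Bowtie, counted them per gene with HTSeq and the UCSC mm9 annotation, and deposited RPKM values, 1 table per mouse (versions are not given in the sources used here). In each table the deposited RPKM values were whole multiples of 1 read over lengths that followed the order of the gene IDs and repeated after 65 to 296 genes. Solving for the library total and these lengths gave whole counts, within the printed digits, for 99.85% of values above 0 in each library, against at most 0.3% when the lengths were moved by 1 row. These counts held 99.75% to 99.78% of the totals. Rows with no gene name (92) were not used, 21597 of 21667 named genes had a gene ID, and the rest were not used. Counts were divided by the library total to give CPM. Recovery and fit were tested on simulated data.

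Log2(CPM + 0.1) was compared with limma 3.58.1 in R 4.3.3 (lmFit, eBayes with a variance trend) for genes above 0.5 CPM in every mouse of at least 1 genotype. Cut-offs followed the paper (absolute log2 fold change above 0.3, adjusted p under 0.05). A fold change on this scale understates that of low genes. Intervals are 95%. Groups came from the sample labels. Nothing in them says that same-numbered mice are littermates, and p-values measure the spread between these mice. The alternatives were the deposited RPKM, other pseudocounts, filters, scaling and models, age, and leaving out mice. Members and lists were chosen with earlier results of these data known. Genes named were the 9 members, *Mef2c*, the alpha-catenin genes, up to 4 genes called per partner list by size (or its most abundant gene), and the 2 genes most correlated with each member. *Adora2a* and the thalamic markers *Rora*, *Tcf7l2* and *Prkcd* were named after their values were seen. The latrophilin genes on the lists were matched under their current symbols (*Adgrl1* to *Adgrl3*). Promoters came from RefSeq windows.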

Additional observations from a re-analysis of the deposited data

How the results depend on the processing

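With the deposited RPKM in place of CPM, 14 genes, 0 members and 0 partner genes passed. *Nrxn3* (-1.69), *Nlgn1* (-3.05) and *Lrrtm4* (-2.73) then kept their direction but no longer passed, *Nlgn3* turned to -1.82, *Khdrbs2* to -0.61 and *Ctnna2* to 0.28, and the log2 ratio of *Nlgn2* to *Nlgn3* turned to 0.67 and that of *Nrxn3* to *Nrxn2* to 0.59. *Lrrtm1* and *Lrrtm3* did not pass the filter there. In these tables the length behind a gene's value differs between mice. In all other alternatives *Nrxn3*, *Nlgn1* and *Lrrtm4* passed in the same direction. Without 1 mouse at a time the number of genes called was 1651 to 1859, of members 3 to 4 and of partner genes 11 to 13. *Lrrtm2* ranged from 0.16 to 0.36, passing without control 1 alone, the ratio of *Lrrtm1* to *Lrrtm2* from -0.158 to 0.0107, and *Ctnna1* from -0.0412 to 0.0431. *Ctnna1* was 0.0109 with voom and 0.0279 in the 12-week-old mice.

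Same-numbered mice did not deviate together (r = -0.18, -0.11 and -0.08 over 14577 genes), but this cannot show whether they are littermates. The paper compared *Mef2c* cKO mice with control littermates, without saying which of these mice shared a litter. With the replicate number as a block 1690 genes, 3 members and 13 partner genes passed, *Gpc6* did not, and the exact paired test of the ratios cannot go below 0.25. The 3 mice per genotype limit the members' estimates to standard errors of 0.060 to 0.11 on the log2 scale, which is wider than their counting error.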
